A study of Mus musculus with 7 samples.

Results

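The Gimap genes encode GTPases of the immunity-associated protein family, and 8 of them (Gimap1, Gimap3, Gimap4, Gimap5, Gimap6, Gimap7, Gimap8 and Gimap9) were followed through 7 RNA libraries of mouse bone marrow. The whole cluster was taken by gene symbol and was chosen by the measured level of Gimap6, which had been seen to be higher with the RUNX1 mutation in both cell types of these same libraries. All 8 had a row among the 28987 genes of the table and were above 0 in every library. The RUNX1 contrast therefore chose the family, and its values are given below as a description with no test.

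Bone marrow was harvested from individual C57BL/6 mice. Hematopoietic stem and progenitor cells (HSC/P) gave 3 libraries and were taken by positive selection for CD117 (the receptor Kit) with a later sort for the mutant clone. These were 2 libraries of RUNX1mut/HMGA2-OE and 1 of HMGA2-OE, so HMGA2 overexpression was present in every HSC/P library and no HSC/P library without it was measured. In the other 4 libraries the cells were sorted Ly6G+ myeloid cells, mostly neutrophils, with 1 library each of RUNX1mut/HMGA2-OE, RUNX1mut, HMGA2-OE and Control. The labels give no age, no driver of the overexpression and no form of the RUNX1 mutation, and whether each library holds 1 mouse is not given in the sources used here.

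Levels are in TPM, each gene's share of all transcript molecules corrected for transcript length. The table keeps no read counts, so the depth behind each value is unknown. Runx1 was at 219 and 225 TPM in RUNX1mut/HMGA2-OE HSC/P, against 18.9 TPM in HMGA2-OE HSC/P. Among Ly6G+ libraries Runx1 stood at 21.2 TPM in RUNX1mut/HMGA2-OE and 11.6 TPM in RUNX1mut, against 3.36 TPM in HMGA2-OE and 3.85 TPM in Control. Ly6g, the antigen of the sort, lay between 269.6 and 441 TPM in the Ly6G+ libraries. In HSC/P it was at 7.28 and 16.8 TPM with both lesions and at 136 TPM in HMGA2-OE. Kit, the antigen of the HSC/P selection, was at 155 and 134 TPM in RUNX1mut/HMGA2-OE HSC/P, against 61.8 TPM in HMGA2-OE HSC/P. In the Ly6G+ libraries Kit lay between 3.43 and 5.20 TPM. The Ly6G+ RUNX1mut/HMGA2-OE library stood apart: its S100a8, a neutrophil calprotectin gene, was at 30622 TPM, against 398580 TPM in RUNX1mut, 546267 TPM in HMGA2-OE and 439280 TPM in Control. For the Gimap genes and their neighbours, ratios and sums quoted from this library for either lesion are therefore given both on deposited and on scaled TPM. Scaling was between libraries of 1 cell type by a trimmed mean of log ratios. Counts are given on both or named as deposited, and sums over marker genes are on deposited TPM alone.

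GIMAP proteins bind GTP through a domain related to that of plant AIG1 proteins and sit on intracellular membranes. They are best known in lymphocytes, where several of them are needed for cell survival, and Gimap5 has also been tied to the maintenance of hematopoietic stem cells in mice. RUNX1 is a transcription factor of blood formation that binds DNA together with its partner CBFB, and HMGA2 is a chromatin architectural protein.

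The 8 genes lie in 1 block of 123.6 kb on mouse chromosome 6 (GRCm38, the assembly also called mm10), from 48647234 to 48770851. Gimap8, Gimap9, Gimap4, Gimap7, Gimap1 and Gimap5 are on the plus strand in that order of position, and Gimap6 and Gimap3 are on the minus strand. Promoter windows of 300 bases, 250 before and 50 after the annotated start, were available from RefSeq (GRCm38.p6) for all 8 genes. The windows of Gimap6, Gimap1, Gimap9 and Gimap4 are shown because these were the genes at least 2-fold higher with the RUNX1 mutation in every pair of libraries on deposited TPM with 1 TPM added. They cover chr6:48708195-48708494 on the minus strand for Gimap6, chr6:48738797-48739096 on the plus strand for Gimap1, chr6:48675885-48676184 on the plus strand for Gimap9 and chr6:48684328-48684627 on the plus strand for Gimap4. Each is written 5′ to 3′ on the strand of its gene, with capitals marking a RUNX core (TGTGGT or TGCGGT) or an ETS core (GGAAGT) on either strand.
Gimap6: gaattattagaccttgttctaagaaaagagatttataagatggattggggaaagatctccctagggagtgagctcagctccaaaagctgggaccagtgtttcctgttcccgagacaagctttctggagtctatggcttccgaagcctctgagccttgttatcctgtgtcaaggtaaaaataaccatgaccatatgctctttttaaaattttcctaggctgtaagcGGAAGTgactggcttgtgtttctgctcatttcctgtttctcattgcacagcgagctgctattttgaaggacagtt
Gimap1: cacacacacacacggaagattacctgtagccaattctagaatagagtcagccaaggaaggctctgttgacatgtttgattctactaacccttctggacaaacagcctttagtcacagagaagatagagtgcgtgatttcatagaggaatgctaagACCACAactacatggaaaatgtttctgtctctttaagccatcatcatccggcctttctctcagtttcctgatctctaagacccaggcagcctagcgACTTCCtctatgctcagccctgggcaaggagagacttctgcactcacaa
Gimap9: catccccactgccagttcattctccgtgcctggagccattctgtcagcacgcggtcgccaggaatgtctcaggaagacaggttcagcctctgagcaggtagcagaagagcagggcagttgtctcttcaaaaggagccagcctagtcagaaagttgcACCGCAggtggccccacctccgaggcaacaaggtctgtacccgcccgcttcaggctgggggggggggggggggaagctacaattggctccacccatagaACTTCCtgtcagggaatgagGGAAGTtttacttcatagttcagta
Gimap4: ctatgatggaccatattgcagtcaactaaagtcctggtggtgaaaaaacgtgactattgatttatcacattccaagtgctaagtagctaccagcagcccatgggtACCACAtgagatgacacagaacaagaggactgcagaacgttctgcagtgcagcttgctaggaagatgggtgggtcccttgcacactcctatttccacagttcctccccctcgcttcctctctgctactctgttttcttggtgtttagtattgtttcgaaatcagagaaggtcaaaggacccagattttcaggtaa
A RUNX core stood in 4 of the 8 genes, and either RUNX core stood in 22.4% of 32851 promoter windows of the same length. Gimap1 held it as ACCACA, 95 bases before the first transcribed base, Gimap4 as ACCACA, 145 bases before, Gimap7 as ACCACA, 79 bases before, and Gimap9 as ACCGCA, 94 bases before. The Gimap6 window had no such letters and held an ETS core 25 bases before the first transcribed base. ETS cores were in the windows of Gimap1, Gimap5, Gimap6 and Gimap9, against 23.8% of all windows. The KLF/SP letters GGGCGG were in 2 members (Gimap7 and Gimap9) and in 35.7% of all windows. The E-box letters CAGCTG and CACGTG, in 16.3% and 7.15% of all windows, were in none of the 8. No overlap between these motifs occurred in the windows printed, and a match is a description of the letters in a window.

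Gimap6, whose product binds the ATG8-like protein GABARAPL2 and acts in autophagy of lymphocytes, was at 69.9 and 67.3 TPM in RUNX1mut/HMGA2-OE HSC/P, against 17.4 TPM in HMGA2-OE HSC/P. In Ly6G+ cells Gimap6 was at 13.7 TPM in RUNX1mut/HMGA2-OE and 4.97 TPM in RUNX1mut, against 1.22 TPM in HMGA2-OE and 1.21 TPM in Control. Both libraries with the mutation lay above both without it in Ly6G+ cells, and the HMGA2-OE and Control libraries were at nearly the same level. The folds on TPM were 4.01 and 3.86 in HSC/P, 11.2 between the Ly6G+ libraries with HMGA2-OE and 4.12 between those without it. With 1 TPM added the Ly6G+ log2 ratios were 2.73 with HMGA2-OE and 1.44 without on deposited TPM, and 1.81 and 1.33 on scaled TPM. One of the annotated Gimap6 transcripts is only 389 nt long, and the table gives no level per transcript.

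Gimap1, needed in mice for the development and survival of B and T lymphocytes, reached the highest level of the family. It was at 102 and 94.4 TPM in RUNX1mut/HMGA2-OE HSC/P, against 24.9 TPM in HMGA2-OE HSC/P. In Ly6G+ cells Gimap1 was at 5.79 TPM in RUNX1mut/HMGA2-OE and 4.81 TPM in RUNX1mut, against 1.12 TPM in HMGA2-OE and 0.751 TPM in Control. The groups did not overlap in either cell type, and the pair of HSC/P replicates lay within 1.08-fold of each other. An antisense gene, Gimap1os, covers part of Gimap1, and 33.9% of the 31-base words of Gimap1 transcripts also occur in Gimap1os or its reverse complement. Gimap1os itself was at 4.60 and 3.82 TPM in RUNX1mut/HMGA2-OE HSC/P, against 0.934 TPM in HMGA2-OE HSC/P. The labels do not say that the libraries kept strand, so reads of Gimap1 and Gimap1os cannot be told apart where they overlap.

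Gimap9 was the most abundant member in Ly6G+ cells. There it was at 25.1 TPM in RUNX1mut/HMGA2-OE and 14.0 TPM in RUNX1mut, against 4.51 TPM in HMGA2-OE and 4.89 TPM in Control. In HSC/P it was at 43.8 and 41.9 TPM in RUNX1mut/HMGA2-OE, against 9.87 TPM in HMGA2-OE. On deposited TPM, Gimap9 differed least between the cell types among the members above 10 TPM, while its RUNX1 folds in HSC/P, 4.44 and 4.24, were like those of Gimap6. It shares none of its 31-base words with other genes.

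Gimap5, the member whose loss in mice depletes T cells and disturbs stem cell quiescence, was at 22.6 and 22.1 TPM in RUNX1mut/HMGA2-OE HSC/P, against 4.79 TPM in HMGA2-OE HSC/P. In Ly6G+ cells it stayed below 1 TPM in every library, at 0.949 TPM in RUNX1mut/HMGA2-OE and 0.954 TPM in RUNX1mut, against 0.324 TPM in HMGA2-OE and 0.159 TPM in Control. Its HSC/P folds of 4.71 and 4.62 were as close between replicates as those of Gimap6 and Gimap1.

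Gimap3, the close relative of Gimap5, showed another order. In HSC/P it was at 2.90 and 1.91 TPM in RUNX1mut/HMGA2-OE, against 1.59 TPM in HMGA2-OE, so the gap to HMGA2-OE was smaller than the gap between the replicates for replicate 2. Among Ly6G+ libraries it stood at 2.57 TPM in RUNX1mut/HMGA2-OE and 4.40 TPM in RUNX1mut, against 1.76 TPM in HMGA2-OE and 0.737 TPM in Control. After scaling, the Ly6G+ pair with HMGA2-OE turned round, at 1.63 against 2.54 TPM (log2 ratio -0.43), whereas the pair without it stayed apart (log2 ratio 1.55). Gimap3 shares 13.2% of its 31-base words with Gimap5, and Gimap5 shares 8.02% with Gimap3, so reads from these words could be assigned to either.

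Gimap4, which has been tied to T cell apoptosis, had the widest gap between replicates of the family. It was at 17.1 and 6.27 TPM in RUNX1mut/HMGA2-OE HSC/P, against 2.01 TPM in HMGA2-OE HSC/P, so that its fold was 8.50 in replicate 1 and 3.12 in replicate 2. In Ly6G+ cells Gimap4 was at 2.43 TPM in RUNX1mut/HMGA2-OE and 2.68 TPM in RUNX1mut, against 0.455 TPM in HMGA2-OE and 0.126 TPM in Control. Gimap8, which encodes a larger protein with repeated GTP-binding domains, was at 9.53 and 6.65 TPM in RUNX1mut/HMGA2-OE HSC/P, against 1.69 TPM in HMGA2-OE HSC/P. In Ly6G+ cells Gimap8 was at 0.440 TPM in RUNX1mut/HMGA2-OE and 0.220 TPM in RUNX1mut, against 0.249 TPM in HMGA2-OE and 0.0988 TPM in Control, and there the groups overlapped. Gimap7, whose human protein stimulates GTP hydrolysis by other GIMAP proteins, was the lowest member in every HSC/P library, at 2.23 and 0.926 TPM in RUNX1mut/HMGA2-OE HSC/P, against 0.677 TPM in HMGA2-OE HSC/P. Its 4 Ly6G+ values lay between 0.126 and 0.393 TPM.

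**Figure D1:**
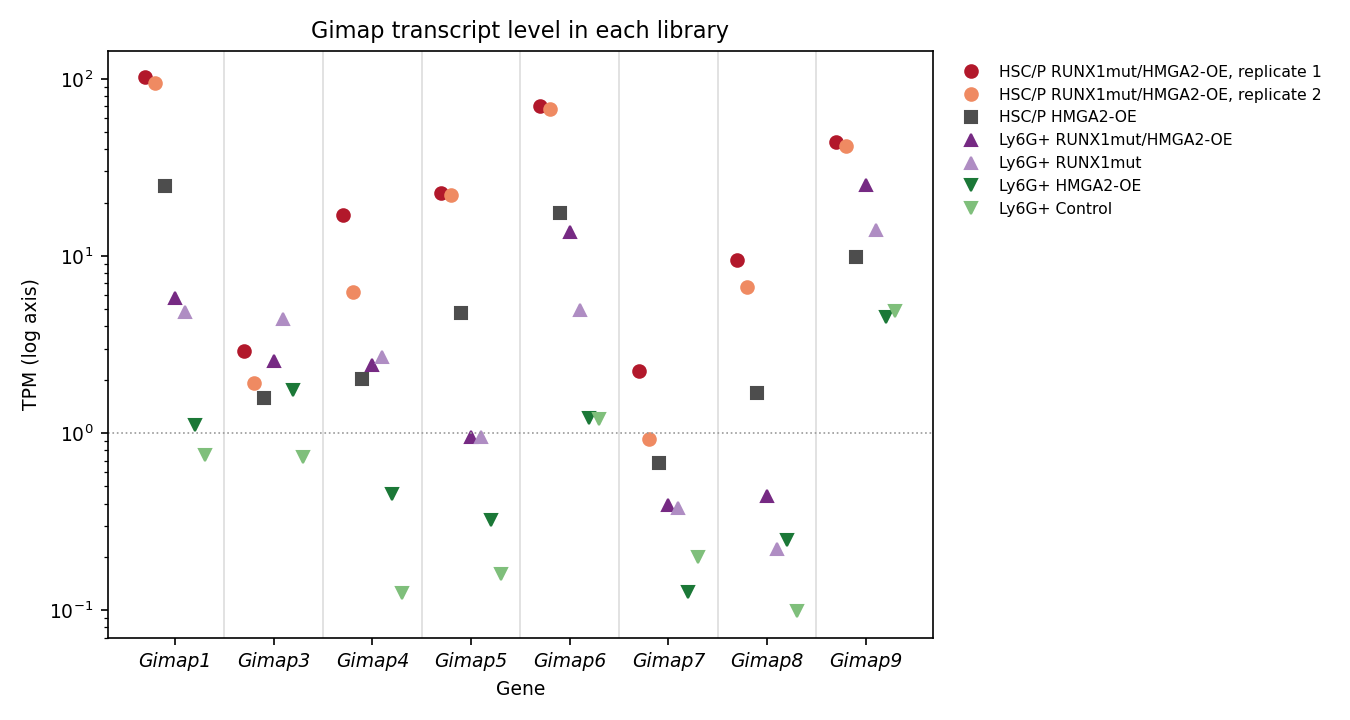
TPM (log axis) of each Gimap gene in each of the 7 libraries, 1 point per library, with a dotted line at 1 TPM. Both RUNX1mut/HMGA2-OE HSC/P libraries lie above the HMGA2-OE HSC/P library for all 8 genes, widely for Gimap6 (69.9 and 67.3 against 17.4 TPM) and narrowly for Gimap3 (2.90 and 1.91 against 1.59 TPM).

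Summed over the 8 genes, Gimap transcripts made up 270.0 and 241 TPM in RUNX1mut/HMGA2-OE HSC/P, against 63.0 TPM in HMGA2-OE HSC/P. In Ly6G+ cells the sum was 51.3 TPM in RUNX1mut/HMGA2-OE and 32.4 TPM in RUNX1mut, against 9.75 TPM in HMGA2-OE and 8.17 TPM in Control. After scaling, the Ly6G+ sums were 32.5 and 31.8 TPM with the mutation, against 14.1 and 9.06 TPM without it. The sum was thus 3.97-fold higher in RUNX1mut than in Control Ly6G+ cells (3.51-fold scaled), and 5.26-fold higher in RUNX1mut/HMGA2-OE than in HMGA2-OE (2.30-fold scaled). These are bulk libraries, so a change in the number of cells that express a gene and a change in RNA per cell cannot be told apart.

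In HSC/P, 6 of the 8 members were at least 2-fold higher in both RUNX1mut/HMGA2-OE replicates than in HMGA2-OE, on log2 of TPM with 1 TPM added, as were 4.67% of the 12033 genes that averaged at least 1 TPM. Gimap3 and Gimap7 were the exceptions. The mean log2 ratios of the 8 members ran between 0.38 (Gimap3) and 2.01 (Gimap9), with a median of 1.92, against a median of 0.13 over all genes. In the Ly6G+ pair without HMGA2-OE, 5 of 8 members (Gimap1, Gimap3, Gimap4, Gimap6 and Gimap9) were at least 2-fold higher in RUNX1mut than in Control, as were 5.71% of all genes, and their median log2 ratio was 1.39 against 0.14 over all genes. In the Ly6G+ pair with HMGA2-OE, 4 of 8 members (Gimap1, Gimap4, Gimap6 and Gimap9) were at least 2-fold higher, but so were 44.3% of all genes. There the members' median log2 ratio was 0.90 and the all-gene median 0.94. Scaling brought the members' median to 0.37, the all-gene median to 0.03 and the share of all genes to 4.61%, and it left 2 members at least 2-fold higher, Gimap6 and Gimap9. The same scaling left the other counts at 6 of 8 in HSC/P (3.81% of all genes) and 5 of 8 in RUNX1mut over Control (4.69% of all genes). Since the rule used this contrast, nothing is read from these shares. Gimap7 averaged under 1 TPM and is not among the 12033 genes.

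By order alone, all 8 members were above HMGA2-OE in both RUNX1mut/HMGA2-OE HSC/P libraries, as were 53% of all genes. In Ly6G+ cells both libraries with the mutation were above both without it for 7 of 8 members, Gimap8 being the exception, and for 59.4% of all genes. On scaled TPM this held for 6 of 8 members (not Gimap3 or Gimap8) and 28.2% of all genes. Both orders together held for 7 members and 32.9% of all genes on deposited TPM.

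The shares of Gimap1 and Gimap9 in the family differed between the cell types more than between genotypes of 1 cell type. This did not hold for every member: the share of Gimap3 ran from 5.01% to 18.0% between Ly6G+ genotypes. Gimap1 took 37.7%, 39.1% and 39.6% of summed Gimap TPM in the HSC/P libraries, and between 9.20% and 14.8% in Ly6G+ cells. Gimap9 took between 15.7% and 17.3% in HSC/P and between 43.2% and 59.9% in Ly6G+ cells. Within HSC/P the shares of Gimap6 were 25.9% and 27.9% in RUNX1mut/HMGA2-OE and 27.7% in HMGA2-OE, so the 4 abundant members kept about the same proportions while the family sum was 4.29-fold and 3.83-fold higher in RUNX1mut/HMGA2-OE than in HMGA2-OE. In Ly6G+ cells the share of Gimap6 was 26.6% in RUNX1mut/HMGA2-OE and 15.3% in RUNX1mut, against 12.5% in HMGA2-OE and 14.8% in Control.

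**Figure D2:**
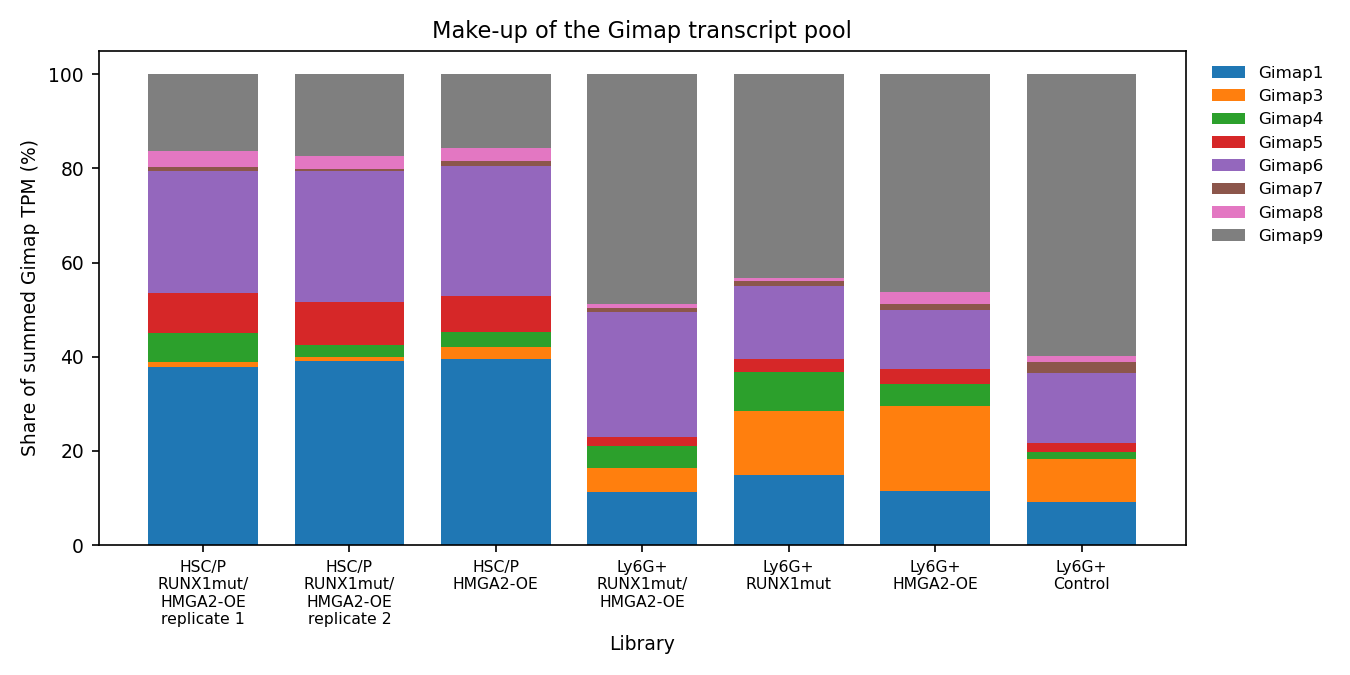
Share (%) of each Gimap gene in the summed Gimap TPM of each library, 1 bar per library. Gimap1 and Gimap6 make up most of the HSC/P bars (37.7% and 25.9% in RUNX1mut/HMGA2-OE replicate 1), and Gimap9 is the largest part of every Ly6G+ bar (43.2% to 59.9%).

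Some neighbours of the cluster were also higher with the mutation. Beyond the Gimap3 end, 62967 bases away, Tmem176b, which encodes a membrane protein of myeloid and dendritic cells, was at 188 and 254 TPM in RUNX1mut/HMGA2-OE HSC/P, against 48.8 TPM in HMGA2-OE HSC/P. In Ly6G+ cells Tmem176b was at 13.7 TPM in RUNX1mut/HMGA2-OE and 11.9 TPM in RUNX1mut, against 2.0 TPM in HMGA2-OE and 1.43 TPM in Control. Its relative Tmem176a, which overlaps it on the other strand, had log2 ratios (1 TPM added) of 1.86 and 2.19 in HSC/P. In the Ly6G+ pairs with and without HMGA2-OE its ratios were 2.31 and 1.89 on deposited TPM and 1.43 and 1.78 on scaled TPM, and those of Tmem176b were 2.29 and 2.41, and 1.32 and 2.29. On the Gimap8 side the ratios were smaller. Zfp775, the nearest measured gene there at 24007 bases, had ratios of 0.61 and 0.87 in HSC/P, and in the same Ly6G+ pairs of 0.37 and 0.26 on deposited TPM and 0.25 and 0.24 on scaled TPM. Farther on that side, the zinc finger gene Repin1 had ratios of 1.04 and 1.18 in HSC/P, and in the Ly6G+ pairs of 0.78 and 0.95 on deposited TPM and 0.37 and 0.91 on scaled TPM. Over all genes the medians were 0.13 in HSC/P, and 0.94 and 0.14 (0.03 and 0.02 scaled) in these Ly6G+ pairs. Beyond Tmem176a, Aoc1, 1600015I10Rik and Doxl2 were all below 0.5 TPM in every library. Other annotated neighbours were not analysed here.

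**Figure D3:**
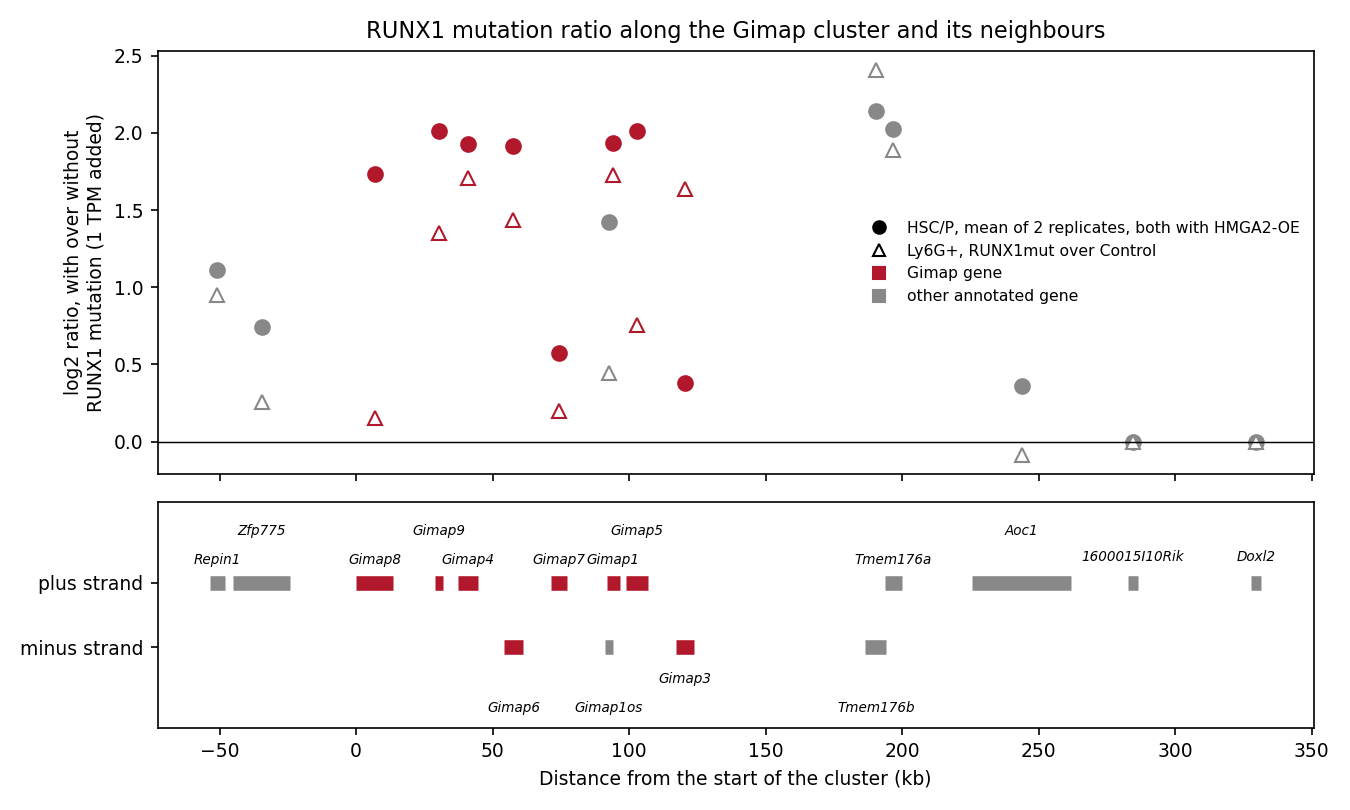
Upper panel: log2 ratio (1 TPM added) with over without the RUNX1 mutation for each gene, placed at its distance in kb from the start of the cluster, in HSC/P (mean of the 2 replicates, filled circles) and in Ly6G+ RUNX1mut over Control (open triangles). Lower panel: the genes by strand. Gimap7 and Gimap3 lie low in HSC/P inside the cluster, and Tmem176b and Tmem176a lie as high as Gimap6 outside it (1.92 to 2.36 in the HSC/P replicates of Tmem176b).

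Across the 7 libraries, on log2 of TPM with 1 TPM added, genes most like Gimap6 among 8672 named protein-coding genes that reached 10 TPM in a library included Atat1 (Pearson r = 0.997), Commd7 (0.994), Fcgrt (0.994) and Map4k4 (0.994). None of these named genes is on chromosome 6. Gimap1 was the closest member, at r = 0.977, followed by Gimap5 at 0.944, Gimap9 at 0.925, Gimap8 at 0.916, Gimap4 at 0.915 and Gimap7 at 0.877, whereas Gimap3 was at 0.335. Set among the 8672 genes, Gimap1 would take place 110, Gimap5 1130, Gimap9 2408, Gimap8 3052, Gimap4 3123, Gimap7 5213 and Gimap3 7158. Many genes outside the family thus followed Gimap6 more closely than its members did. Between other members r reached 0.987 for Gimap5 with Gimap8 and was at most 0.568 for any pair with Gimap3. The libraries share cell types and genotypes, so these coefficients describe an order of 7 points and carry no p.

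HMGA2 overexpression, a contrast the choice of the family did not use, was tested in the 4 Ly6G+ libraries with an additive fit of both lesions in limma, which leaves 1 residual degree of freedom. Hmga2 itself was at 12.1 TPM in RUNX1mut/HMGA2-OE, against 1.36 TPM in RUNX1mut, and at 3.72 TPM in HMGA2-OE, against 1.45 TPM in Control, while the 3 HSC/P libraries, all with HMGA2-OE, held between 138 and 176 TPM. No gene of 9820 passed at an adjusted p of 0.05 (0% called), 639 had an unadjusted p under 0.05, and the smallest adjusted p was 0.256. Gimap1, Gimap3, Gimap4, Gimap6 and Gimap9 were high enough to be tested. Gimap6 had a log2 fold change of 0.48 ± 0.20 (SE of the fit, adjusted p = 0.741) and Gimap9 of 0.21 ± 0.11 (adjusted p = 0.755). The values of Gimap1 (0.11 ± 0.28), Gimap3 (-0.03 ± 0.62) and Gimap4 (0.01 ± 0.36) were smaller than their errors, with adjusted p of at least 0.924. The additive fit averages pairs that went apart for Gimap6: the log2 ratio was 1.30 for RUNX1mut/HMGA2-OE over RUNX1mut and 0.0065 for HMGA2-OE over Control on deposited TPM, and 0.72 and 0.24 on scaled TPM. For Gimap3 the same ratios were -0.60 and 0.67 on deposited TPM, and -1.02 and 0.96 on scaled TPM. With 1 library of each genotype these differences have no replicate behind them. Gimap8 was the only member with both HMGA2-OE libraries above both without it on deposited TPM, as were 6% of all genes. Gimap8 stayed under 0.5 TPM in all 4 Ly6G+ libraries.

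HSC/P were then set against Ly6G+ cells in the 5 libraries with HMGA2-OE (3 HSC/P, 2 Ly6G+), with the RUNX1 mutation as a covariate and 2 residual degrees of freedom. Cell type had not entered the choice of the family. On scaled TPM, Gimap1 was higher in HSC/P by 2.19 ± 0.24 on the log2 scale (limma, adjusted p = 0.00238) and Gimap6 by 1.0 ± 0.15 (adjusted p = 0.00551). Gimap3 was lower in HSC/P, with a log2 fold change of -1.40 ± 0.29 (adjusted p = 0.0144), and so was Gimap9, with -0.89 ± 0.20 (adjusted p = 0.0192). Gimap4 (0.24 ± 0.47, adjusted p = 0.677) did not pass, and Gimap7 was too low to be tested. Over all 12686 genes 64.7% passed (32.2% higher and 32.5% lower), so a pass says nothing particular about the family. Gimap5 and Gimap8 reached 1 TPM in HSC/P alone, so they entered the fit through the cells where they are high, and their log2 fold changes of 1.8 ± 0.42 and 1.04 ± 0.45 are given with no call. Gimap9 missed the threshold when RUNX1mut/HMGA2-OE HSC/P replicate 2 was left out. Without the Ly6G+ RUNX1mut/HMGA2-OE library the log2 fold change of Gimap5 was 0.89 and that of Gimap8 0.10.

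The direction for Gimap9 depended on the scale. Without scaling the median gene was 1.46 higher in HSC/P on the log2 scale, against 0.10 with it, and 8170 genes were called higher and 1126 lower, against 4085 and 4127 with scaling. Upper-quartile scaling gave 5424 higher and 3104 lower around a median of 0.50. Gimap9 had a log2 fold change of 0.85 without scaling and of -0.40 under upper-quartile scaling, and passed the threshold under neither. Gimap3 was at -0.09 without scaling and did not pass there, whereas Gimap4 was at 1.44 and passed (adjusted p = 0.00424), at about the level of the median gene. Relative to the median gene, Gimap1 and Gimap6 lay above and Gimap3 and Gimap9 below under each of the 3 scalings. As plain TPM folds of HSC/P over Ly6G+ cells, Gimap1 was 17.0-fold and Gimap6 5.02-fold higher between RUNX1mut/HMGA2-OE libraries (mean of the HSC/P pair), and 22.3-fold and 14.3-fold higher between the HMGA2-OE libraries. Gimap9 was 1.71-fold and 2.19-fold higher in these comparisons, and Gimap3 was at 0.937 and 0.903 of its Ly6G+ level.

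**Figure D4:**
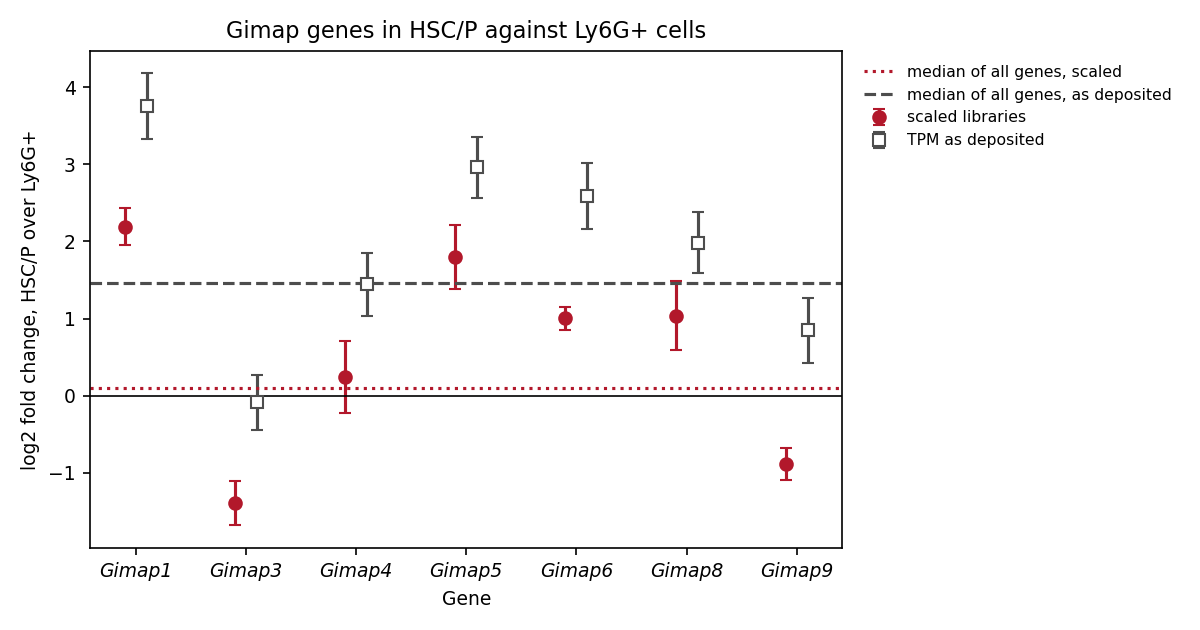
Log2 fold change of HSC/P over Ly6G+ cells for the 7 fitted Gimap genes, with bars for the standard error of the limma fit, on scaled TPM (filled circles) and on TPM as deposited (open squares). Lines mark the median of all 12686 genes under each scale (0.10 and 1.46). Gimap1 and Gimap6 lie above the line of each scale, and Gimap9 changes sign between the scales. Gimap5 and Gimap8, which reached 1 TPM in HSC/P alone, are shown with no call.

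Markers of other blood cells were read beside the family, with all sums on deposited TPM. Scaling would divide the Ly6G+ sums by 1.58 in RUNX1mut/HMGA2-OE and 1.02 in RUNX1mut, and by 0.69 in HMGA2-OE and 0.90 in Control. Of the 12033 genes averaging at least 1 TPM, 53% were above HMGA2-OE in both RUNX1mut/HMGA2-OE HSC/P libraries. In Ly6G+ cells 59.4% of them (28.2% on scaled TPM) were above in both libraries with the mutation. The share of all genes below HMGA2-OE in both HSC/P libraries was not counted. Counts of list genes below, here and in the lists that follow, therefore have no such share beside them. Markers of T cells, which are rich in Gimap transcripts, summed to 63.5 and 133 TPM over 20 genes in RUNX1mut/HMGA2-OE HSC/P, against 32.8 TPM in HMGA2-OE HSC/P. Most of that sum was Lat (45.9 and 108 against 7.03 TPM), an adaptor that platelets and mast cells also carry. In HSC/P, 5 of the 20 were above HMGA2-OE in both libraries and 8 below. Of the 20, 3 were at 0 in RUNX1mut/HMGA2-OE replicate 1 and 1 in replicate 2, against 0 in HMGA2-OE. In Ly6G+ cells the T cell sum was 54.6 TPM in RUNX1mut/HMGA2-OE and 25.5 TPM in RUNX1mut, against 24.5 TPM in HMGA2-OE and 12.5 TPM in Control. There 10 of 20 were above in both libraries with the mutation (8 on scaled TPM). The median T cell log2 ratio in the Ly6G+ pair with HMGA2-OE was 0.44 on deposited and 0.05 on scaled TPM. Trac was at 18.7 TPM in RUNX1mut/HMGA2-OE against at most 3.93 TPM in the others. Cd3d was at 8.54 TPM in RUNX1mut/HMGA2-OE, against 10.2 TPM in HMGA2-OE. No T cell marker but Thy1 was at 0 in RUNX1mut/HMGA2-OE. B cell markers summed to 88.4 and 94.8 TPM in the Ly6G+ libraries with the mutation, against 23.4 and 29.0 TPM in those without, and 9 of 10 were above in both (8 scaled). In HSC/P, B cell markers summed to 110 and 89.8 TPM, against 88.1 TPM. NK cell markers summed to at most 13.6 TPM in any library, with 3 of 8 above and 5 below in HSC/P and 7 of 8 above in Ly6G+ cells (3 scaled). The part of lymphocyte RNA in the Gimap values was not tested.

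In HSC/P, most progenitor and megakaryocyte markers were also higher with the mutation. Stem and progenitor markers summed to 693 and 646 TPM in RUNX1mut/HMGA2-OE HSC/P, against 318 TPM in HMGA2-OE HSC/P. Of these, 8 of 10 were above in both (53% of all genes), and 1 was below, Mecom, at 2.07 and 5.27 against 132 TPM. Megakaryocyte markers summed to 948 and 2448 TPM against 446 TPM, with 7 of 8 above. Endothelial markers, several of which stem cells and megakaryocytes share, summed to 170 and 246 TPM against 84.2 TPM, with 7 of 10 above and 0 below. The most abundant were Egfl7 (77.7 and 79.8 against 48.1 TPM), Vwf (32.9 and 35.8 against 26.2 TPM), Esam (31.4 and 51.4 against 1.68 TPM) and Tek (15.5 and 35.9 against 4.16 TPM). Cdh5 was at most 0.141 TPM and Sox17 at 0. Mast cell and basophil markers summed to 370 and 411 TPM against 81.5 TPM, with 3 of 6 above. Neutrophil markers went the other way, at 17569 and 18323 TPM against 61295 TPM, with 8 of 9 below. Their median HSC/P log2 ratio was -1.82, against 0.13 over all genes. Erythroid markers were at 1291 and 2599 TPM against 2601 TPM, with 6 of 8 below and a median log2 ratio of -0.89. In Ly6G+ cells the sums over progenitor markers were 28.2 and 23.2 TPM with the mutation against 8.27 and 22.0 TPM without it, and those over megakaryocyte markers 72.0 and 52.2 TPM against 10.7 and 17.2 TPM. There endothelial markers were at 11.1 and 22.5 TPM against 2.13 and 1.77 TPM, erythroid markers at 5871 and 334 TPM against 83.1 and 99.9 TPM, and mast cell and basophil markers at 393 and 322 TPM against 301 and 328 TPM. Scaled median log2 ratios in the Ly6G+ pair with HMGA2-OE were 0.37 for progenitor, 1.47 for megakaryocyte and 0.05 for endothelial markers. For erythroid markers this median was 1.90 and for mast cell and basophil markers -0.19, against 0.03 over all genes. The part of this shift in cell make-up in the Gimap values was not tested.

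In HSC/P, genes tied to GIMAP function did not follow the family as a group. Of 16 partners and survival or autophagy genes, 10 were above HMGA2-OE in both RUNX1mut/HMGA2-OE HSC/P libraries (53% of all genes) and 4 below. Prkcq, a protein kinase C of T cells and platelets, was the only one at least 2-fold higher in both (17.7 and 48.9 against 2.86 TPM). Over all genes 4.67% were. Gabarap, the most abundant, was at 136 and 152 TPM against 134 TPM, and Gabarapl2, the partner of Gimap6, at 36.3 and 52.9 TPM against 31.7 TPM. The anti-apoptotic gene Mcl1 was at 85.4 and 89.1 TPM against 80.9 TPM. Bcl2l1 was at 28.0 and 49.9 TPM against 14.4 TPM, and Bcl2 at 10.2 and 13.1 TPM against 5.48 TPM. The median HSC/P log2 ratio of this list was 0.20, against 0.13 over all genes. In Ly6G+ cells 14 of the 16 were above in both libraries with the mutation on deposited TPM (59.4% of all genes). On scaled TPM 5 were (28.2% of all genes). In HSC/P against Ly6G+ cells, all 16 were tested, 4 were higher and 9 lower (against 32.2% and 32.5% of all genes), with Gabarap at -3.31 ± 0.15 (limma, adjusted p = 0.000631) and Gabarapl2 at -2.73 ± 0.24 (adjusted p = 0.00158).

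Another GTPase family of immune cells, the interferon-inducible IRG and GBP proteins, was set beside the Gimap genes. All 11 analysed members were above HMGA2-OE in both RUNX1mut/HMGA2-OE HSC/P libraries, with a median log2 ratio of 0.58, and 3 (Tgtp1, Gbp2 and Gbp9) were at least 2-fold higher in both. That order held for 53% of all genes and that fold for 4.67%. In Ly6G+ cells all 11 were above in both libraries with the mutation on deposited TPM (59.4% of all genes) and 8 on scaled TPM (28.2% of all genes). Irgm1, the most abundant on average, was at 47.2 and 55.0 TPM against 39.8 TPM in HSC/P, and at 31 and 27.9 TPM with the mutation against 13.1 and 13.5 TPM without it in Ly6G+ cells. Of 10 genes that accompany GIMAP genes in naive T cells, 6 were above in both HSC/P libraries and 3 (S1pr1, Foxo1 and Satb1) at least 2-fold higher. S1pr1, the receptor for lymphocyte egress, was at 10.1 and 15.5 TPM against 1.07 TPM in HSC/P. Il7r, the receptor of the survival cytokine of naive T cells, was at 1.11 and 0.695 TPM in RUNX1mut/HMGA2-OE HSC/P, against 1.08 TPM in HMGA2-OE HSC/P.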

How the data were processed

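RNA was sequenced from 3 HSC/P and 4 Ly6G+ bone marrow libraries. Per the submitters' processing notes, reads passed through bcl2fastq, CASAVA 1.8 and kallisto, and mm10 is the build. The authors deposited 1 table, read here as TPM because its unlabelled, non-whole values sum per column to between 896820 and 993009. Of its 28987 Ensembl identifiers, 27458 took a symbol from GENCODE M21. A TPM is a share, so 1 very abundant gene lowers all others, and depth is unknown.

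Fits used limma 3.58.1 (R 4.3.3) on log2(scaled TPM + 1), keeping genes that reached 1 TPM in 2 or more of the fitted libraries, with trended variances, two-sided tests and Benjamini-Hochberg adjustment at 0.05. Scaling factors were trimmed means of log ratios, all genes weighted alike, with trims of 0.3 for ratios and 0.05 for levels. Fold changes on this scale understate those of low genes, and ± is the standard error. The code was tested on simulated data. With 1 library per genotype, the residual of the HMGA2-OE fit is the departure of both lesions from additivity. Its p-values therefore measure no spread between replicates. In the cell type fit the residual holds the 1 replicate pair and the departure of genotype and cell type from additivity. P-values there cover these libraries only. Shares of 31-base words came from GENCODE M21 transcripts and promoters from RefSeq. The RUNX1 contrast has no test because the family was chosen by it. The members, lists and motifs were chosen with earlier results of these data known. Named genes were the 8 members, the 5 genes most like Gimap6 (of which 1 is not reported here), the nearest neighbours, the label checks and from each list up to 4 abundant members. Other list genes (Lat, Trac, Thy1, Mecom, Cdh5, Sox17, Prkcq, Gabarapl2, Bcl2l1, Bcl2, Tgtp1, Gbp2, Gbp9, Foxo1, Satb1, S1pr1 and Il7r) were named after their values were seen. Other scalings, pseudocounts, filters and left-out libraries were tried.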

Additional observations from a re-analysis of the deposited data

How the results depend on the processing

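TPM keeps no depth, so counting error could not be given, and only the RUNX1mut/HMGA2-OE HSC/P group has a replicate. No paired analysis was possible because only 1 group has replicate numbers in the labels. In Ly6G+ cells the HMGA2-OE term called 61 genes without scaling, 58 in a fit of all 7 libraries and 47 in that fit without the RUNX1mut/HMGA2-OE Ly6G+ library (leaving out that library was chosen after seeing the data), against 0 otherwise, and no Gimap gene was called under any of these settings. The sign of Gimap3 in that term turned, to 0.033 without scaling, 0.085 with 0.1 TPM added and 0.72 without that library, and that of Gimap4 to -0.0042 with no filter. In HSC/P against Ly6G+ cells Gimap9 turned to 0.85 without scaling, and Gimap4 to -0.14 without HSC/P replicate 1 (0.48 without replicate 2) and to -0.26 without the Ly6G+ library, and the count of genes called lay between 6401 and 7384 with 1 library left out, against 8212. Gimap3 and Gimap9 missed the threshold with no filter and Gimap3 with all 7 libraries, and Gimap4 (1.44) passed it without scaling; Gimap8 was at 1.98 there and at 1.81 in the RUNX1mut/HMGA2-OE libraries alone. The RUNX1 log2 ratios in Ly6G+ cells with HMGA2-OE turned under scaling for Gimap3 (-0.43) and Gimap8 (-0.089). Of 24 RUNX1 ratios, 18 moved by more than the SD of that gene's HSC/P replicates with 0.1 TPM added, and 13 under scaling, the turned value of Gimap3 among them. The cause of these changes was not tested.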
